A study of Mus musculus with 12 samples.

Results

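Claudins are the membrane proteins of the tight junction, and 10 of them with segment- or stage-restricted expression in the kidney (*Cldn2*, *Cldn3*, *Cldn4*, *Cldn5*, *Cldn6*, *Cldn7*, *Cldn8*, *Cldn10*, *Cldn16* and *Cldn19*) were followed here. Each was taken as the row carrying exactly that symbol, and all 10 were present among the 24062 gene rows of each of 12 mouse kidneys, where 16 further rows had symbols beginning with Cldn. The work behind them concerned Lin28 proteins, which bind RNA and block the maturation of *let-7* microRNAs, and asked how prolonged LIN28B expression or loss of *let-7* alters the developing kidney. Whole kidneys were collected at postnatal day 3 (P3) and their RNA was sequenced, with 3 kidneys from 2 litters in each of 4 groups. *LIN28B* Wt1 kidneys (labelled LIN28OE, C57BL/6) carried TRE-LIN28B, lox-STOP-lox-rtTA and Wt1-Cre, so that human LIN28B could be induced by doxycycline in *Wt1*-expressing cells and their descendants, and a single short pulse was given late in embryonic kidney development. Their controls, described in the study as littermates, were labelled WT on C57BL/6. The *let-7* KO kidneys lacked *let-7a1*, *let-7d* and *let-7f1* in all cells. They and their WT controls, also described as littermates, were on a mixed CD1 and C57BL/6 background. The *LIN28B* Wt1 model is therefore limited to cells with a history of Wt1-Cre, which can include stroma as well as nephron progenitors, while the *let-7* deletion is present in every cell of the kidney.

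Tight junctions seal the space between epithelial cells, and the claudins in a junction set which ions and how much water can pass between the cells. Because each segment of the nephron expresses its own combination, claudins make the proximal tubule leaky, give the thick ascending limb a path for calcium and magnesium, and make the collecting duct tight. In whole-kidney RNA, fewer cells of a segment and less RNA per cell cannot be told apart, and this applies to every level below.

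The 3 deleted microRNA genes lie together on mouse chromosome 13, and their mature sequences are shown because they share the seed (bases 2 to 8, in capitals) through which they would recognise a claudin transcript (RefSeq, GRCm38.p6).
let-7a-5p, chr13:48538239-48538260, minus strand: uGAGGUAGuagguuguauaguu
let-7d-5p, chr13:48536078-48536099, minus strand: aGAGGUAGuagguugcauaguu
let-7f-5p, chr13:48537889-48537910, minus strand: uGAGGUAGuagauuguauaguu
The match to this seed, CTACCTC, was found in the longest protein-coding transcript of 0 of the 10 claudins, and in 21.6% of the 20439 protein-coding genes of the files (GENCODE M21). The other common form of the site, TACCTCA, was also found in 0 of the 10, against 21.0% of genes. Claudin transcripts are short, between 1173 bases for *Cldn16* and 4168 bases for *Cldn19*, and only these letters were searched. A 290-base *Cldn2* transcript model held 1 CTACCTC that the longest *Cldn2* transcript lacks.

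Read totals ran from 39926235 to 61872736 counts per kidney, and 3 counts corresponded to between 0.0485 and 0.0751 CPM (counts scaled to a common library size), far below any of the 10 claudins, whose lowest count in a kidney was 404. *Hmga2*, a target of *let-7*, was between 156 and 207 CPM in *LIN28B* Wt1 kidneys and between 12.4 and 16.4 CPM in their controls. Human *LIN28B* has no row in the files, and the mouse *Lin28b* row held 71 to 232 counts in *LIN28B* Wt1 kidneys and 0 to 33 in controls. The *Mirlet7a-1*, *Mirlet7d* and *Mirlet7f-1* rows were at 0 in all *let-7* KO kidneys, but also in WT replicate 1, so these precursor rows check the labels weakly. *Hmga2* was at 12.3, 21.8 and 31.6 CPM in *let-7* KO kidneys, above every WT kidney at 9.68, 7.72 and 10.5 CPM. *LIN28B* Wt1 replicate 3, the only mutant kidney of its litter, stood apart from the other 2. Its counts differed from theirs by a chi-square of 227 and 237 per gene, where the other 2 differed by 60.5, and its log2 level had a slope of 0.14 per doubling of transcript length, beside -0.05 and -0.06 in theirs and 0.00 to 0.14 in controls. Pairs within the *let-7* KO and WT groups differed by a chi-square of 92.6 to 239 per gene. Results that rest on it are given with and without it.

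In control kidneys the claudins spanned about an order of magnitude when compared per kilobase of exon. *Cldn8* had the highest level in the C57BL/6 controls, at 111 ± 2.84 CPM per kilobase (SD, n = 3), and *Cldn5* followed at 84.3 ± 6.02. *Cldn10*, *Cldn7* and *Cldn2* came next at 73.6 ± 4.18, 66.8 ± 3.65 and 65.4 ± 1.93 CPM per kilobase, and each overlapped its neighbour in that order. *Cldn6* (48.9 ± 8.12), *Cldn4* (34.9 ± 13.0) and *Cldn3* (28.1 ± 1.66) followed, again with neighbours overlapping, and the thick limb pair *Cldn16* (14.5 ± 2.44) and *Cldn19* (10.2 ± 0.793) had the lowest levels per kilobase. In *LIN28B* Wt1 kidneys *Cldn2* and *Cldn10* sat below *Cldn6* at 42.7 ± 3.66 and 40.5 ± 7.40 CPM per kilobase, beside *Cldn3* at 40.3 ± 5.12, and these 3 overlapped. In *let-7* KO kidneys *Cldn10* stood first at 103 ± 11.04 CPM per kilobase, as it did in their own WT controls at 96.4 ± 18.3, and the 5 highest claudins of the KO kidneys each overlapped the next.

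**Figure D1:**
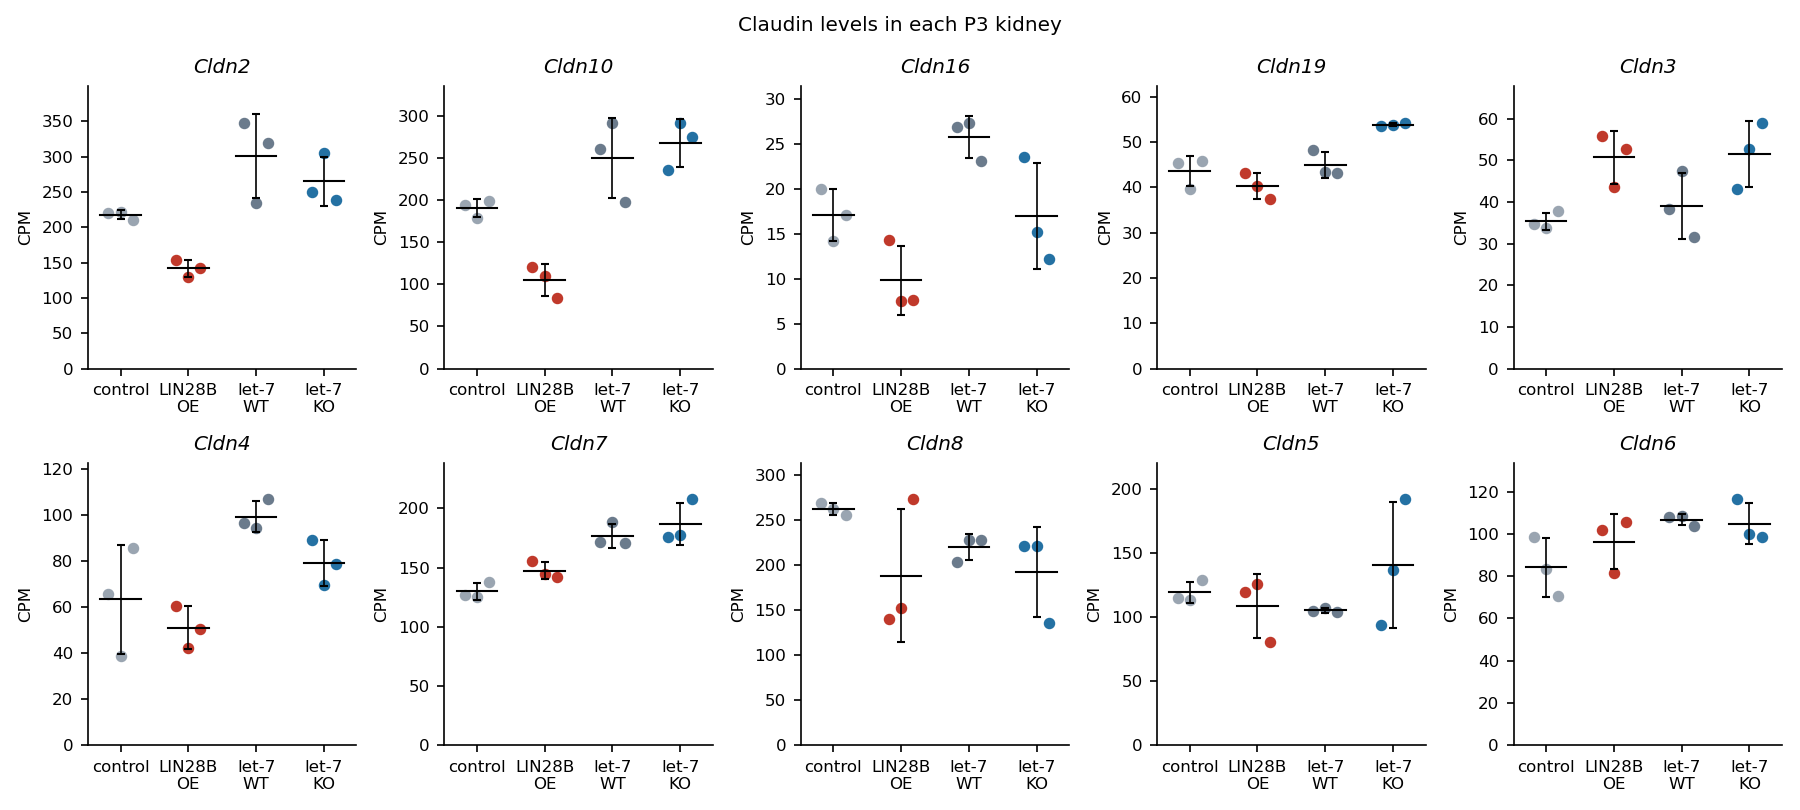
Level of each claudin in each of the 12 P3 kidneys (LIN28B OE marks *LIN28B* Wt1), in CPM, with bars for the mean and SD of 3 kidneys. *Cldn2* and *Cldn10* are lower in all 3 *LIN28B* Wt1 kidneys than in any control, while the *let-7* KO kidneys overlap their WT controls for both genes.

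Proximal tubule claudins were lower in *LIN28B* Wt1 kidneys and did not pass the test in *let-7* KO kidneys. *Cldn10*, for which the anion-selective form claudin-10a acts in the proximal tubule and the cation-selective form claudin-10b in the thick ascending limb, spans chr14:118787908-118875489 (mm10). Its level was 194, 179 and 199 CPM in the 3 controls and 121, 110 and 83.7 CPM in the 3 *LIN28B* Wt1 kidneys. Every mutant kidney lay below every control. *Cldn10* fell by 0.86 on the log2 scale (SE 0.158, 95% interval -1.21 to -0.51), to 0.551 of the control level, with an adjusted p of 0.0370 in edgeR's quasi-likelihood test. It was the only 1 of the 10 claudins called at an adjusted p below 0.05, a threshold that 1.23% of all 15793 genes passed. With litter as a replicate block the difference was -0.87 and the adjusted p was 0.0659. The adjusted p was also above the threshold without control replicate 1 (0.209), 2 (0.174) or 3 (0.136) and without *LIN28B* Wt1 replicate 1 (0.0654) or 2 (0.126), and was 0.00515 without replicate 3. It was below the threshold in 9 of the 15 alternatives, among them DESeq2 (9.13e-05) and edgeR with a transcript-length covariate (0.00216).

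*Cldn2*, which forms the cation- and water-permeable pore of the proximal tubule, lies at chrX:139800828-139811386. It was at 220, 222 and 210 CPM in controls and at 154, 129.6 and 142 CPM in *LIN28B* Wt1 kidneys, again with no overlap. The log2 difference was -0.61 (SE 0.128, 95% interval -0.90 to -0.33), with a p of 0.000814 and an adjusted p of 0.0548 in edgeR. *Cldn2* thus missed the adjusted threshold and passed an unadjusted p below 0.01, as *Cldn10* did, so 2 of 10 claudins passed it against 7.33% of all genes. The adjusted p of *Cldn2* was 0.00105 with DESeq2, 0.0316 with the stricter low-count filter, 0.0104 with a transcript-length covariate and 0.00977 without *LIN28B* Wt1 replicate 3. In the other 11 of 15 alternatives it stayed above the threshold, among them 0.107 with litter as a replicate block. Leaving out control replicate 1, 2 or 3 gave 0.258, 0.275 and 0.144, and leaving out *LIN28B* Wt1 replicate 1 or 2 gave 0.115 and 0.179.

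In *let-7* KO kidneys *Cldn10* was at 236, 292 and 275 CPM, and its WT controls were at 260, 291 and 198 CPM. These ranges overlapped, and the log2 difference was 0.08 (95% interval -0.33 to 0.50, adjusted p of 0.914 in edgeR). *Cldn2* was at 250.1, 305 and 239 CPM in *let-7* KO kidneys and at 348, 234 and 319 CPM in WT, a log2 difference of -0.20 (95% interval -0.63 to 0.23, adjusted p of 0.748). None of the 10 claudins was called in *let-7* KO kidneys at either threshold in edgeR, where 0.0194% of 15500 genes passed the adjusted and 2.73% the unadjusted threshold. DESeq2 also called 0 of the 10 at an adjusted p below 0.05, and 0 of the 10 had an unadjusted p below 0.05 in edgeR. The lowest adjusted p among them was 0.488, for *Cldn16*.

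The difference between the models was tested as an interaction in all 12 kidneys, where 0 of the 10 claudins passed the adjusted threshold in edgeR and 1, *Cldn10* (adjusted p of 0.0445), in DESeq2. For *Cldn10* the log2 difference in *LIN28B* Wt1 kidneys was lower than that in *let-7* KO kidneys by 0.96 (SE 0.246, 95% interval of the difference -1.49 to -0.44), with a p of 0.00150 and an adjusted p of 0.404 in edgeR. It was the only 1 of the 10 with a p below 0.01, which 1.55% of 16598 genes had, and 0.00602% of them passed the adjusted threshold. For *Cldn2* the interaction was -0.43 (95% interval -0.92 to 0.05, adjusted p of 0.834).

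**Figure D2:**
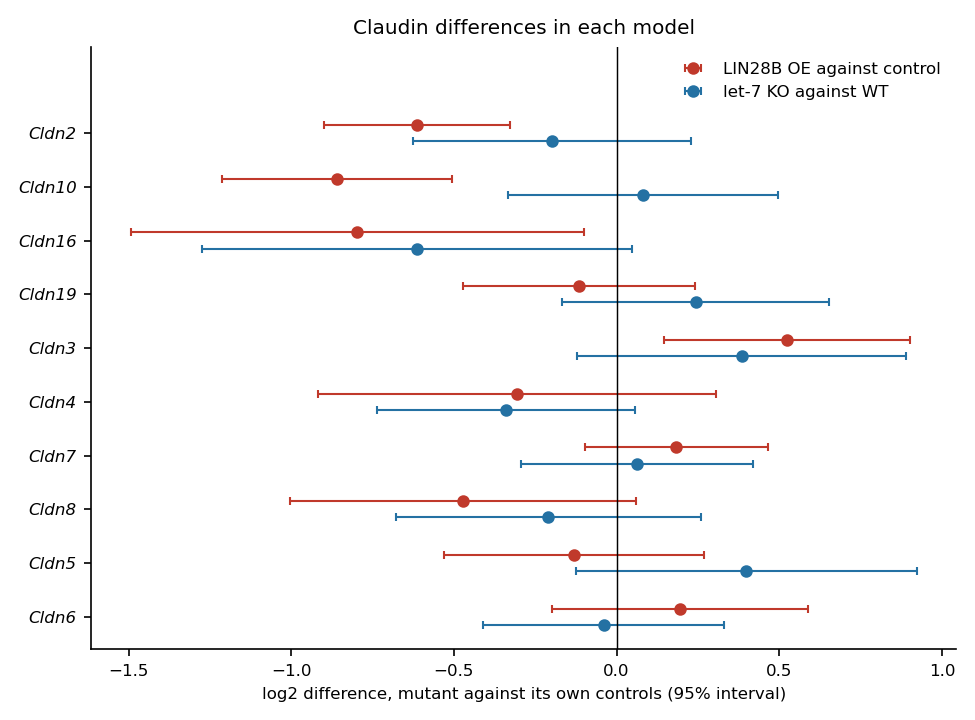
Log2 difference of each claudin in *LIN28B* Wt1 (LIN28B OE) and *let-7* KO kidneys against their own controls, with 95% intervals from edgeR. For *LIN28B* the intervals of *Cldn2*, *Cldn10*, *Cldn16* and *Cldn3* do not cross 0, of which *Cldn10* alone was called after adjustment over all genes. For *let-7* KO every interval crosses 0.

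Markers of the proximal tubule moved in the same kidneys. Of 13 markers, 5 fell at an adjusted p below 0.05 in *LIN28B* Wt1 kidneys and 0 rose, with a median log2 difference of -0.90 beside -0.02 over all genes. *Gatm*, an enzyme of creatine synthesis, fell by 1.52 on the log2 scale (adjusted p of 0.000938), and *Slc34a1*, the phosphate transporter of the brush border, fell by 1.196 (adjusted p of 0.000977). The count of proximal tubule markers that fell was 5 with litter as a replicate block. Leaving out kidneys gave 3 without control replicate 1 or 2, 4 without control replicate 3 or *LIN28B* Wt1 replicate 2, 6 without *LIN28B* Wt1 replicate 1 and 8 without its replicate 3. Over all genes, 27, 21 and 65 were called without control replicate 1, 2 or 3, against 194 with all kidneys. Without *LIN28B* Wt1 replicate 1, 2 or 3 the totals were 71, 46 and 2074. These totals stand beside every leave-out count of a marker list below. The summed level of the 13 markers was between 1744 and 2065 CPM in *LIN28B* Wt1 kidneys and between 4193 and 4211 CPM in controls. With *let-7* deleted, 0 of 13 passed the adjusted threshold and 4 were lower at a p below 0.01 in edgeR, with a median of -0.34. Whether the marker levels account for the claudin levels was not tested. When each claudin was set against the mean log2 CPM of the 13 markers in the same kidney, a comparison chosen after the values were seen, *Cldn2* was higher relative to them by 0.43 in *LIN28B* Wt1 kidneys and *Cldn10* by 0.17. Among *let-7* KO kidneys, *Cldn10* was likewise higher relative to them, by 0.46, with no overlap. In all 3 cases the groups did not overlap, and the exact permutation p, two-sided, was 0.1 for each, the smallest that 3 against 3 can give (0.25 after adjustment over the 20 such comparisons). The lowest of the 13 markers had a log2 difference of -2.71 in *LIN28B* Wt1 kidneys and weighs on their mean. The comparison without that marker was not made.

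Reads are summed over the whole of *Cldn10*, and its pair of annotated start sites lie 67079 bases apart, so the proximal and thick limb forms could not be told apart. The 300-base promoter windows of these starts (250 bases before and 50 after, RefSeq, GRCm38.p6) had a GC content of 36% for the upstream and 72.0% for the downstream start. Promoters were searched on both strands for 5 motifs. The TATA box was searched as TATAAA, and the core motif of the tubule factor HNF1 as GTTAAT. For HNF4, another factor of the tubule, the letters were CAAAGT. The TCF/LEF site was read as CTTTGA, which on the other strand overlaps the HNF4 letters in part. The GC box was searched as GGGCGG. The windows of *Cldn10* and *Cldn2* that held a tubule factor motif or a TATA box are shown, with the match in capitals and its position counted from the start site.
Cldn10 upstream start, HNF1 core motif on the minus strand at -15, chr14:118787844-118787873: aggaaattaagcATTAACtatgctgctaac
Cldn10 upstream start, HNF4 core motif on the minus strand at -75, chr14:118787784-118787813: tgtataatctgtACTTTGtaatatttgatc
Cldn2, TATA box on the plus strand at -35, chrX:139800761-139800790: gacagggaaaaaTATAAAacccaccaaacg
*Cldn2* and *Cldn10* shared none of these matches. A GC box was found in 8 of the 12 promoter windows of the claudins and in 35.7% of all promoters, and a TCF/LEF site in 0 of 12 and 16.0%. An HNF1 core motif occurred in 1 of the 12 claudin windows and in 7.10% of 32851 promoters, and TATAAA in 1 of 12 and 13.6%. The HNF4 letters were in 3 of 12, those of *Cldn10*, *Cldn6* and *Cldn16*, and in 14.4% of promoters. The 12 windows belong to 9 of the claudins, and *Cldn8* was not among them. A match is a description of the letters and not evidence of binding.

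In the thick ascending limb *Cldn16* and *Cldn19*, whose products form together the cation pore through which calcium and magnesium are taken back, had log2 differences of unlike size, and neither passed the adjusted threshold in either model. *Cldn16* (chr16:26463135-26482765) was at 19.9, 14.2 and 17.1 CPM in controls and at 14.2, 7.55 and 7.62 CPM in *LIN28B* Wt1 kidneys. The highest mutant kidney overlapped the lowest control. Its log2 difference was -0.80 (SE 0.311, 95% interval -1.49 to -0.10, adjusted p of 0.213 in edgeR). In *let-7* KO kidneys it was at 23.5, 15.1 and 12.2 CPM, against 26.9, 27.3 and 23.1 CPM in WT, a log2 difference of -0.61 (95% interval -1.28 to 0.05, adjusted p of 0.488).

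*Cldn19* (chr4:119255414-119262438) was at 45.4, 39.7 and 45.7 CPM in controls and 43.1, 40.2 and 37.4 CPM in *LIN28B* Wt1 kidneys, which overlapped, with a log2 difference of -0.12 (95% interval -0.47 to 0.24). With *let-7* deleted, its level was 53.5, 53.8 and 54.2 CPM, above all WT kidneys at 48.3, 43.4 and 43.1 CPM, and the log2 difference of 0.24 did not pass the test (95% interval -0.17 to 0.65, adjusted p of 0.668). *Cldn19* shares 90 exonic bases with *Gm12927* on the other strand, and whether the counting used strand is not given in the sources used here.

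The ratio of *Cldn16* to *Cldn19* counts within a kidney does not depend on library scaling. It was 0.439, 0.357 and 0.373 in controls and 0.330, 0.188 and 0.204 in *LIN28B* Wt1 kidneys, all below the controls. In WT it was 0.556, 0.630 and 0.535, and in *let-7* KO kidneys 0.440, 0.282 and 0.225, again all below. The mean log2 ratio was lower by 0.74 in the first model (-2.10 ± 0.440 against -1.37 ± 0.156) and by 0.92 in the second (-1.72 ± 0.491 against -0.81 ± 0.123). The exact permutation p was 0.1 in both, the smallest possible, and 0.2 after Benjamini-Hochberg adjustment over the 12 ratio comparisons made (6 pairs in 2 models, the pairs chosen with earlier results known).

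All 7 markers of the thick ascending limb were lower at a p below 0.01 in *LIN28B* Wt1 kidneys, against 7.33% of all genes. At an adjusted p below 0.05, which 1.23% of all genes passed, 2 of the 7 fell. These were *Ptger3*, a prostaglandin receptor, which fell by 1.59 (adjusted p of 0.0349), and *Umod*, which encodes uromodulin and fell by 1.23 (adjusted p of 0.0409), and the median over the 7 was -1.23. With litter as a replicate block 1 of the 7 thick ascending limb markers was called. Without any 1 of the 3 controls, or without *LIN28B* Wt1 replicate 2, 0 were called, against 1 without its replicate 1 and 5 without its replicate 3. Among *let-7* KO kidneys, 0 of 7 passed either threshold, with a median of -0.51. Relative to the mean log2 CPM of these 7 markers in the same kidney, *Cldn19* was at -0.73, -0.75 and -0.16 in controls and at 0.41, 0.46 and 0.54 in *LIN28B* Wt1 kidneys, a difference of 1.01. The groups did not overlap (exact permutation p of 0.1, two-sided, 0.25 adjusted), and this comparison too was chosen after the values were seen. In the *let-7* model *Cldn19* was at -0.90, -0.27 and -0.81 in WT and at -0.34, 0.54 and 0.42 in KO, which overlapped, with a difference of 0.87 (exact permutation p of 0.2, two-sided). *Cldn16* differed by 0.31 on the same scale in *LIN28B* Wt1 kidneys, with overlap (exact permutation p of 0.4).

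**Figure D3:**
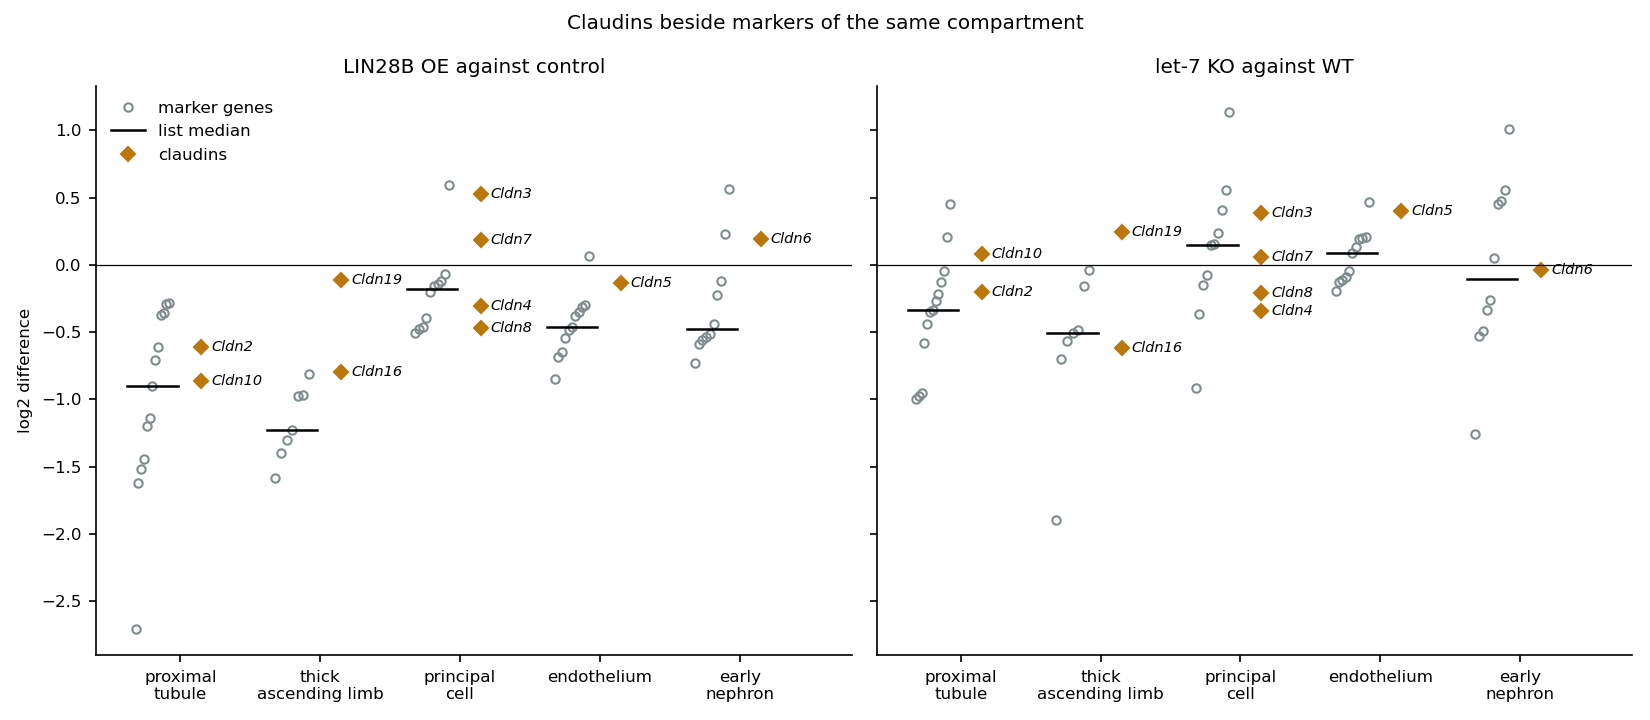
Log2 difference of the claudins (diamonds) beside that of markers of the same compartment (open circles, with the list median as a line) in *LIN28B* Wt1 (LIN28B OE, left) and *let-7* KO kidneys (right). *Cldn19* at -0.12 lies above all 7 thick limb markers, whose median is -1.23, in *LIN28B* Wt1 kidneys, and *Cldn10* and *Cldn2* lie within the range of the proximal markers.

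Of the claudins of the distal nephron and collecting duct, 0 of 4 passed the adjusted threshold in either model. *Cldn3*, a sealing claudin (chr5:134986214-134987472), was at 34.6, 33.7 and 37.7 CPM in controls and at 55.8, 43.5 and 52.7 CPM in *LIN28B* Wt1 kidneys. No mutant kidney overlapped a control, and the log2 difference was 0.52 (95% interval 0.15 to 0.90, p of 0.0117, adjusted p of 0.146 in edgeR). In *let-7* KO kidneys *Cldn3* was at 43.2, 52.6 and 59.0 CPM, against 38.2, 47.3 and 31.5 CPM in WT, with overlap and a log2 difference of 0.38 (95% interval -0.12 to 0.89). *Cldn3* shares 40 exonic bases with *Wbscr25* on the other strand.

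*Cldn4*, which with claudin-8 forms a chloride path in the collecting duct, lies at chr5:134945119-134946934, 39279 bases from *Cldn3*. Its controls were spread widely, at 65.7, 38.6 and 85.6 CPM, and the *LIN28B* Wt1 kidneys lay within them at 60.6, 42.1 and 50.6 CPM (log2 difference -0.31, 95% interval -0.92 to 0.30). In the *let-7* model the 3 KO kidneys, at 89.3, 69.5 and 78.7 CPM, were all below WT at 96.7, 94.2 and 107 CPM, and the log2 difference of -0.34 had a p of 0.0853 (95% interval -0.74 to 0.06).

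*Cldn8* (chr16:88560828-88563183) depended on a single kidney. It was at 268, 262 and 255 CPM in controls and at 139 and 152 CPM in *LIN28B* Wt1 replicates 1 and 2, but at 273 CPM in replicate 3, above every control. With all 6 kidneys the log2 difference was -0.47 (95% interval -1.003 to 0.06, adjusted p of 0.338). Without replicate 3 it was -0.85, with an adjusted p of 0.00237 in edgeR, and 3 of the 10 claudins (*Cldn2*, *Cldn8* and *Cldn10*) passed the adjusted threshold, as did 2074 of 16258 genes in all, against 194 of 15793 with it. *let-7* KO replicate 3 was likewise the odd kidney of its group for *Cldn8*, at 135 CPM beside 220.5 in both others and 204, 228 and 228 in WT, but in the lower direction.

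*Cldn7* (chr11:69964779-69967885), which is found along the basolateral membrane of distal cells as well as in the junction, was at 127, 125 and 138 CPM in controls and 156, 145 and 142 CPM in *LIN28B* Wt1 kidneys. These groups did not overlap, but the log2 difference was small at 0.18 (95% interval -0.10 to 0.47, adjusted p of 0.496). It was 0.06 in *let-7* KO kidneys (95% interval -0.30 to 0.42). In all, the groups did not overlap for 4 claudins in *LIN28B* Wt1 kidneys (*Cldn3* and *Cldn7* higher, *Cldn2* and *Cldn10* lower) and for 2 in *let-7* KO kidneys (*Cldn19* higher, *Cldn4* lower), against 23.8% and 16.7% of all genes tested.

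None of the 10 principal cell markers passed either threshold in *LIN28B* Wt1 kidneys in edgeR, where 3 had an unadjusted p below 0.05, and their median log2 difference was -0.18. Without replicate 3 of the mutants 1 of them fell at an adjusted p below 0.05. *Elf5*, a transcription factor of the principal cell and the only marker of the 10 above 0, had a log2 difference of 0.59 (adjusted p of 0.184). With *let-7* deleted, 0 passed the adjusted threshold, and *Hsd11b2*, which protects the mineralocorticoid receptor from glucocorticoids, was lower at a p of 0.00440 (log2 difference -0.91, adjusted p of 0.362). Over this list 6 of 10 were above 0, with a median of 0.15, and *Elf5* had a log2 difference of 1.14 (p of 0.0395, adjusted p of 0.434 in edgeR). Within a kidney, *Cldn3* was higher relative to these markers by 0.71 and *Cldn7* by 0.38 in *LIN28B* Wt1 kidneys, with no overlap and an exact permutation p of 0.1 for each. In *let-7* KO kidneys *Cldn4* was lower relative to the same markers by 0.45, also with no overlap (exact permutation p of 0.1, two-sided, 0.25 adjusted). The count ratio of *Cldn3* to its neighbour *Cldn4* was 0.527, 0.873 and 0.440 in controls and 0.922, 1.03 and 1.04 in *LIN28B* Wt1 kidneys, which did not overlap, while 0.395, 0.502 and 0.294 in WT and 0.484, 0.756 and 0.749 in *let-7* KO did. *Cldn4* to *Cldn8* overlapped in both models, *Cldn2* to *Cldn10* too, and *Cldn3* to *Cldn7* had like log2 ratio differences of 0.33 in *LIN28B* Wt1 kidneys, where the groups did not overlap, and 0.34 in *let-7* KO kidneys, where they did. The difference between the models was not tested for these ratios.

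**Figure D4:**
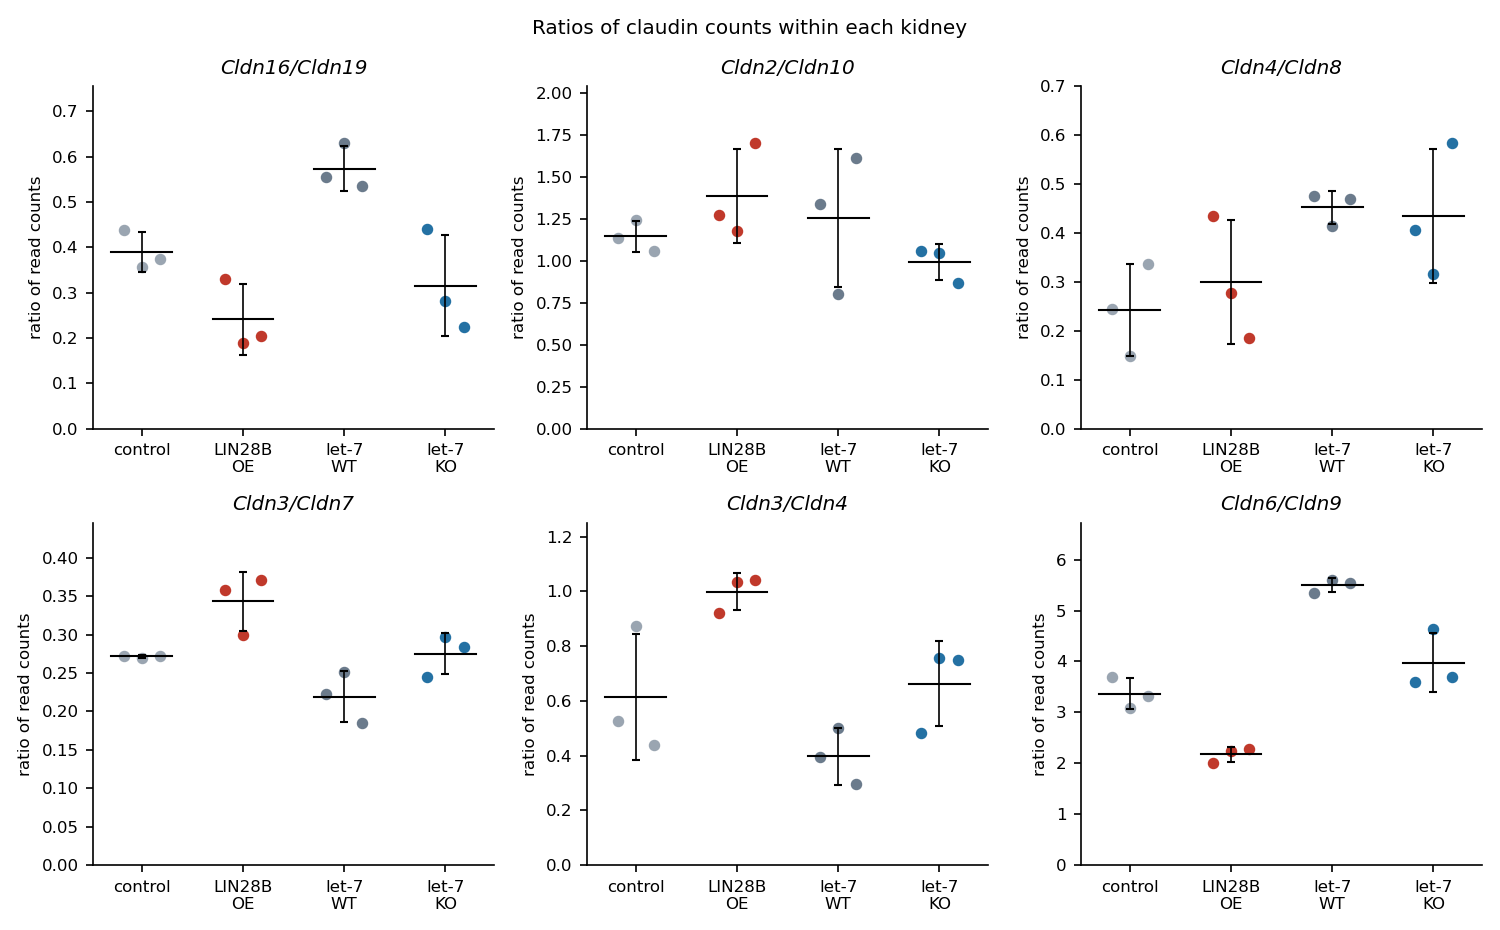
Ratio of read counts of 6 claudin pairs within each kidney, with bars for the mean and SD of 3 kidneys. *Cldn16*/*Cldn19* and *Cldn6*/*Cldn9* are lower in every mutant kidney than in every kidney of its own controls in both models.

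*Cldn5*, the main claudin of endothelium (chr16:18776847-18778262), was at 115, 114 and 129 CPM in controls and at 120.1, 126 and 80.5 CPM in *LIN28B* Wt1 kidneys, where replicate 3 was again the one apart. The log2 difference was -0.13 (95% interval -0.53 to 0.27) and was 0.04 without that kidney. The *let-7* KO kidneys ranged from 93.6 to 192 CPM around WT values between 104 and 107 CPM (log2 difference 0.40, 95% interval -0.13 to 0.92). Of 11 endothelial markers, 5 were lower at a p below 0.01 in *LIN28B* Wt1 kidneys, against 7.33% of all genes in either direction. None of the 5 passed adjustment in edgeR, and the median over the 11 was -0.46. Without replicate 3 of the mutants 5 of 11 fell at an adjusted p below 0.05, where 2074 of 16258 genes were called. The summed level of the 11 markers was 878 to 964 CPM in *LIN28B* Wt1 kidneys and 1244 to 1257 CPM in controls.

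*Cldn6*, a claudin of embryonic epithelia (chr17:23679249-23682446), was at 98.6, 83.4 and 70.7 CPM in controls and at 102, 81.6 and 105 CPM in *LIN28B* Wt1 kidneys, a log2 difference of 0.20 (95% interval -0.20 to 0.59). Among *let-7* KO kidneys, it was at 116, 99.9 and 98.4 CPM, and in WT at 108, 108 and 104 CPM (log2 difference -0.04, 95% interval -0.41 to 0.33). In the same *LIN28B* Wt1 kidneys 6 of 10 markers of the cap mesenchyme, the nephron progenitors, rose at an adjusted p below 0.05, with a median of 1.59. That count of cap mesenchyme markers was 5 with litter as a replicate block, 2 without control replicate 1 or 2, 4 without control replicate 3, and 6, 3 and 7 without *LIN28B* Wt1 replicate 1, 2 and 3. *Tmem100*, named after its value was seen, was the 1 marker of this list that was lower at a p below 0.01 (log2 difference -0.67). With *let-7* deleted, 0 of the 10 cap mesenchyme markers passed the adjusted threshold in edgeR, 9 were above 0 and the median was 0.79. *Gdnf* (log2 difference 2.20) and *Tmem100* (1.14) were higher in *let-7* KO kidneys at a p below 0.01, which 2.73% of all genes had. In *LIN28B* Wt1 kidneys the early nephron list went the other way, with 0 of 10 past the adjusted threshold in edgeR, 8 of 10 below 0 and a median of -0.48. Its member *Pax8*, a regulator of nephron formation, had a log2 difference of -0.56 (p of 0.00960, adjusted p of 0.133). *Fgf8*, 1 of the 2 members above 0, had a log2 difference of 0.56 (p of 0.0307, adjusted p of 0.219 in edgeR). With *let-7* deleted, 5 of the 10 early nephron markers were above 0 and 5 below, with a median of -0.11. Relative to the early nephron list in the same kidney, *Cldn6* was higher by 0.53 in *LIN28B* Wt1 kidneys, with no overlap (exact permutation p of 0.1, two-sided, 0.25 adjusted). *Six2*, which maintains the nephron progenitors, rose by 3.35 in *LIN28B* Wt1 kidneys (adjusted p of 0.000797).

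*Cldn9*, a close paralog of *Cldn6*, lies 137 bases from it on the opposite strand of chromosome 17. It was the only 1 of the 16 further rows beginning with Cldn (10 of which had enough counts to be tested) that passed either threshold in either model. The threshold it passed was the unadjusted p below 0.01 in *LIN28B* Wt1 kidneys, which 7.33% of all genes passed. *Cldn9* was at 26.7, 27.01 and 21.2 CPM in controls and at 50.9, 36.4 and 46.3 CPM in *LIN28B* Wt1 kidneys, all above the controls. Its log2 difference was 0.84 (SE 0.199, p of 0.00201, adjusted p of 0.0739 in edgeR). In *let-7* KO kidneys it was at 32.3, 21.5 and 26.7 CPM against 20.2, 19.3 and 18.7 CPM in WT, a log2 difference of 0.45 (p of 0.101). The count ratio of *Cldn6* to *Cldn9* was 3.69, 3.09 and 3.33 in controls and 1.998, 2.24 and 2.28 in *LIN28B* Wt1 kidneys. Values were 5.34, 5.61 and 5.54 in WT and 3.60, 4.64 and 3.69 in *let-7* KO. Neither model overlapped its controls, and the exact permutation p was 0.1 in each (0.2 adjusted over the 12 ratio comparisons).

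No other tight junction gene examined passed the adjusted threshold with all kidneys. Of 30 partners and regulators, among them the scaffold *Tjp1*, occludin and the kinases *Wnk1* and *Wnk4*, 0 passed the adjusted threshold in *LIN28B* Wt1 kidneys in edgeR, and their median log2 difference was -0.17 beside -0.02 over all genes. At a p below 0.01, 1 of the 30 was higher and 1 lower, where 7.33% of all genes passed in either direction. *Ybx3*, which encodes the junction-associated factor ZONAB, was the higher 1 (log2 difference 0.53, adjusted p of 0.0722). *Wnk4*, a regulator of distal salt transport, was the lower 1 (-0.64, adjusted p of 0.129). Without *LIN28B* Wt1 replicate 3, 2 rose and 1 fell at an adjusted p below 0.05, where 2074 of 16258 genes were called. With *let-7* deleted, 0 of 30 passed either threshold, with a median of -0.10 and *Ocln* lowest in p (log2 difference -0.71, p of 0.0129, adjusted p of 0.376). Over the 10 claudins the median was -0.22 in *LIN28B* Wt1 kidneys, with 3 values above 0 and 7 below, and 0.01 in *let-7* KO kidneys, with 5 above and 5 below. The 10 claudins summed to 939 ± 53.3 CPM in *LIN28B* Wt1 kidneys and 1163 ± 45.3 CPM in controls (SD, n = 3), and to 1359 ± 60.6 CPM in *let-7* KO and 1368 ± 39.3 CPM in WT.

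The 2 control groups were also compared, where strain, mouse line and litters cannot be told apart, and 8 of the 10 claudins had log2 differences above 0 (median 0.37 beside -0.01 over all genes). *Cldn7* was higher in mixed-strain WT than in C57BL/6 controls by 0.44 on the log2 scale (95% interval 0.17 to 0.72), with a p of 0.00383 and an adjusted p of 0.190 in edgeR. None of the 10 passed the adjusted threshold in edgeR and 1, *Cldn7*, did in DESeq2. *Cldn7* alone had a p below 0.01 in edgeR, which 3.32% of 16598 genes had, while 0.627% passed the adjusted threshold. *Cldn4* (0.65, 95% interval 0.14 to 1.16) and *Cldn2* (0.47, 95% interval 0.12 to 0.81) were also higher in the mixed-strain group without passing it. So were *Cldn10* (0.39, 95% interval 0.02 to 0.76) and *Cldn6* (0.34, 95% interval 0.001 to 0.68). The 13 proximal markers all had log2 differences above 0 in this comparison, with a median of 0.55. Levels in the mutants were therefore compared only with their own controls.

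For 9 of the claudins the genes with the most similar pattern over the 12 kidneys were found, by the root mean square difference of mean-centred log2 CPM among 11821 genes of at least 5 CPM. *Cldn10* was nearest to *BC026585* (0.13) and *Gstt2* (0.13). *Cldn16* was nearest to *Nqo1* (0.21) and *Lurap1l* (0.25), and *Cldn4* to *Vil1* (0.22) and *Cdkn1a* (0.23). These compare with an SD over the kidneys of 0.59 for *Cldn10*, 0.61 for *Cldn16* and 0.48 for *Cldn4*. For *Cldn3* they were *Rbm19* and *Alyref*, for *Cldn5* *Stoml1* and *Acads*, for *Cldn6* *Ppme1* and *Araf*, for *Cldn7* *Psmd3* and *Pdcd2*, for *Cldn8* *Pid1* and *Tubgcp4*, and for *Cldn19* *Atp2b1* and *Rab11a*. No claudin was among the 2 nearest genes of any of these 9.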

How the data were processed

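Total RNA of P3 whole kidneys was sequenced in 12 libraries, 3 per group. The authors deposited raw read counts per gene symbol, one table per kidney, and their processing notes name cutadapt, TopHat2 2.0.9, Bowtie2, SAMtools 0.1.19, HTSeq and the build mm10. The annotation and the strand setting are not given in the sources used here. Samples were grouped by the genotype and strain labels. Counts were tested in edgeR 4.0.16 (R 4.3.3) with filterByExpr (minimum count 10, minimum total 15), TMM factors and the two-sided quasi-likelihood test, each model on its own 6 kidneys and the interaction and the control groups in all 12, with Benjamini-Hochberg adjustment over all genes. "Rose" and "fell" mean an adjusted p below 0.05, and a p below 0.01, the study's threshold, was a second rule. CPM use TMM factors over all 12 kidneys, and per-kidney log2 values add 0.5 CPM (0.5 counts for ratios).

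The claudins, gene lists and ratio pairs were chosen with earlier results of these data known. All 10 claudins are named for each model against its own controls, and only some of them in the other comparisons. Of the marker lists, at most the 4 genes with the lowest p are named. Scripts were tested on simulated counts. Alternatives were DESeq2 1.42.0, other size factors and filters, litter as a replicate block, 1 fit of 12 kidneys, Y-linked and transcript-length covariates and leaving out each kidney. The labels give a litter number. Between mutant and control groups, deviations from the group mean in kidneys of the same litter number correlated at -0.17 on average in the *LIN28B* model. The average was -0.04 in the *let-7* model (0.21 and 0.05 for different numbers). Centring on the group mean ties the same-number and different-number averages to each other, so they are not separate comparisons. They cannot show whether mutants and controls of the same number are related. No pair of kidneys in a group was alike enough to be the same library (chi-square of at least 31.6 per gene). P-values measure the spread between these kidneys, some of which share a litter, and the main tests leave litter out. Positions are GENCODE M21 on GRCm38, which is mm10, and 98.2% of symbols matched it. The genes nearest in pattern to *Cldn2* are not reported here.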

Additional observations from a re-analysis of the deposited data

Results flagged for a closer look

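*Cldn10* was flagged for its log2 difference in *LIN28B* Wt1 kidneys less that in *let-7* KO kidneys, which was -0.96 (interaction in edgeR, p of 0.00150). The adjusted p over all genes was 0.404, so this fails correction. The models also differ in strain, mouse line and litters, which cannot be told apart here. The *LIN28B* Wt1 kidneys were lower than their controls in 3 of 3, and the *let-7* KO kidneys overlapped theirs.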

How the results depend on the processing

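The number of claudins called in *LIN28B* Wt1 kidneys, 1 as reported, was 2 with DESeq2, 2 with at least 1 CPM in every kidney, 2 with a transcript-length covariate, 0 with litter as a replicate block, and 0 to 3 when 1 kidney was left out. The replicate block changed no other call among the claudins. It was not fitted between the control groups, whose litters are nested in the experiments. In the interaction and in the comparison of control groups the number of claudins called was 1 with DESeq2 in place of 0. At a p below 0.01, the control groups gave 2 with DESeq2 or its size factors and 0 to 2 with a kidney left out, in place of 1, and *let-7* KO gave 0 to 1 in place of 0. With the transcript-length covariate the *let-7* KO log2 difference turned for *Cldn6* (0.020), *Cldn7* (-0.028) and *Cldn10* (-0.16), none of which was called. Leaving out 1 kidney turned further values that were not called. In *let-7* KO these spanned -0.065 to 0.21 for *Cldn10*, -0.14 to 0.012 for *Cldn6* and -0.011 to 0.12 for *Cldn7*, and in *LIN28B* Wt1 -0.23 to 0.039 for *Cldn5*. In the interaction they spanned -0.57 to 0.12 for *Cldn16*, -0.046 to 0.25 for *Cldn3* and -0.24 to 0.30 for *Cldn4*, and between the control groups -0.021 to 0.078 for *Cldn19* and -0.021 to 0.28 for *Cldn3*. Leaving out kidneys for ratios and marker-relative values was added after seeing the data. The log2 ratio of *Cldn4* to *Cldn8* spanned -0.34 to 0.11 in *let-7* KO and -0.026 to 0.59 in *LIN28B* Wt1. Against marker lists, the *let-7* KO values spanned -0.17 to 0.23 for *Cldn16*, -0.080 to 0.54 for *Cldn5*, -0.15 to 0.12 for *Cldn6* and -0.27 to 0.16 for *Cldn7*, and that of *Cldn4* in *LIN28B* Wt1 -0.37 to 0.24. The cause was not tested. Over all genes, the *LIN28B* Wt1 calls numbered 194 as reported, 1264 with DESeq2, 401 with the stricter filter, 95 with the block and 1093 with the length covariate; *let-7* KO calls numbered 3, 235 with DESeq2 and 0 with the block; the interaction gave 1 and 101 with DESeq2, and the control groups 104 and 397. Among the claudins followed here, the lowest count in a kidney was 404, for *Cldn16* in *LIN28B* Wt1 replicate 2. That is far above the floor of 3 counts. What sets the number of claudins called was not tested.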
